A study of Sus scrofa with 12 samples.

Results

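The perilipins PLIN2, PLIN3 and PLIN5, the lipase PNPLA2 and its co-activator ABHD5 were followed through lists of N6-methyladenosine (m6A) peaks from pig longissimus dorsi, the long back muscle. Every listed peak whose gene column named one of these 5 genes was taken. This gave 23 of the 13487 peaks in the series, and 5 of the 2159 genes with a peak. Samples came from 5-day-old pigs of the Ningxiang breed, a Chinese indigenous pig, and of the Large White breed, a commercial pig bred for lean growth, with 3 replicates per breed. m6A had been mapped by MeRIP-seq, in which fragmented mRNA is enriched with an m6A antibody and set against input mRNA kept back before the enrichment. The labels do not say whether each replicate was a separate pig, or whether animals were pooled, so each p-value rests on a spread between samples that may be technical.

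Fat in muscle fibres is stored as triacylglycerol in lipid droplets. Perilipins coat the droplets and set the access of lipases to them: PLIN2 and PLIN3 are found in most tissues, while PLIN5 is known for muscle, heart and other tissues that burn fat. PNPLA2, also called ATGL, removes the first fatty acid from triacylglycerol, and it needs ABHD5, also called CGI-58, for full activity. In mouse and human cells PLIN5 binds both ABHD5 and PNPLA2 at the droplet surface. m6A is placed on mRNA mostly near stop codons and in long exons, and is known to affect the stability and translation of the transcript.

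The 6 lists held 2034 to 2222 peaks in Ningxiang and 2214 to 2533 in Large White. Read counts were not analysed here, so the depth behind a peak is unknown. Where a gene has no listed peak, nothing passed the threshold of the caller; its mRNA may still have carried m6A. The labelled tissue was checked against marker genes: 11 of the 12 skeletal muscle markers that could carry a peak, of 14 in the marker set, had one in some list, where 53.5% of all 4037 genes that could carry one did. CKM, DES and MYH4 were among those with a peak in all 6. Markers of fibroblasts (3 of 4), endothelium (2 of 2) and macrophages (2 of 2) that could carry a peak were listed as well, so these counts do not single out muscle. ACTA1, the skeletal actin, had no listed peak. Of 8 adipocyte markers 4, 4 and 4 had a peak in Ningxiang replicates 1 to 3 and 4, 3 and 5 in Large White replicates 1 to 3. PPARG and FABP4 had one in all 6 lists, and PLIN1 and LIPE in none. In whole muscle, fewer cells of a type and less RNA per cell cannot be told apart, and the part of fat cells in the results on the perilipins was not tested.

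The 5 genes fell into different patterns of listing. PLIN5 had peaks in all 6 lists, PLIN3 in all Ningxiang lists and in no Large White list, and PNPLA2 in 2 Ningxiang lists and in no Large White list. PLIN2 was listed once in Ningxiang and 3 times in Large White, and ABHD5 in 2 lists of each breed. Of the 5 genes, 4, 4 and 3 had a peak in Ningxiang replicates 1 to 3, and 2, 3 and 3 in Large White replicates 1 to 3, or 3.67 ± 0.577 and 2.67 ± 0.577 (SD, n = 3 each). These ranges meet at 3 genes, so the breeds overlapped on this count. Only PLIN3 had a peak in 3 of 3 lists of 1 breed and in 0 of 3 lists from the other; among all 2159 genes it was found for 0.741% towards Ningxiang and for 1.34% towards Large White. These shares depend on list length: they stand for 16 and 29 genes, and with every list limited to its 2034 strongest peaks the counts were 27 and 23. Across all genes 35.7% had a peak in all 6 lists, a pattern that 1 of the 5 genes shared.

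**Figure D1:**
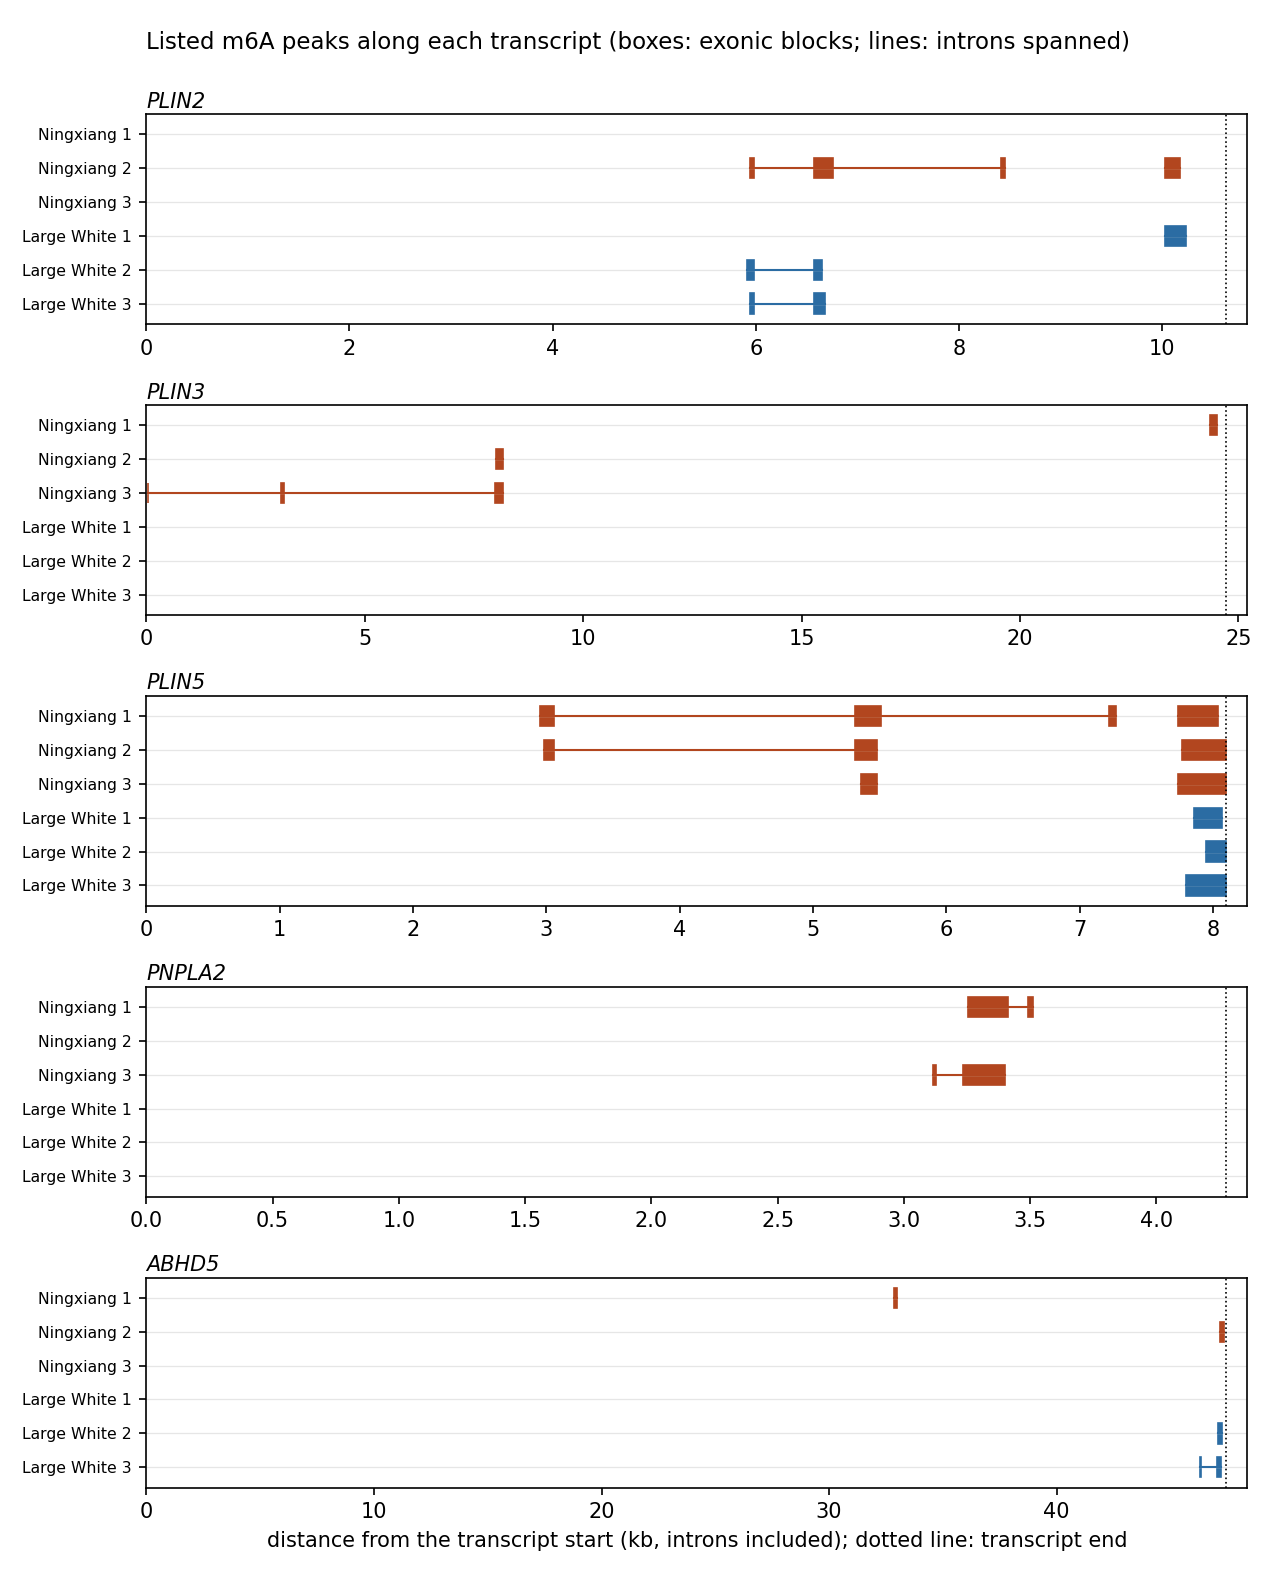
Peaks of the 5 genes along their transcripts. The horizontal axes give the distance from the transcript start in kb with introns included, and the rows are the 3 Ningxiang lists above the 3 Large White lists; boxes are exonic blocks, lines are introns that a peak spans and the dotted line is the transcript end. PLIN5 has a box at the transcript end in all 6 lists and an upstream one in the 3 Ningxiang lists.

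PLIN2 is the droplet coat of most cells, and its protein is known to be stable while droplets are present. Its transcript NM_214200 lies on the plus strand of chromosome 1 from 203684047 to 203694674 (susScr11). Peaks lay at 2 places. In Ningxiang replicate 2 a peak ran from 203689988 to 203692504, beginning in exon 5 of 8 and covering 269 exonic bases in 3 blocks. At the same place Large White replicate 2 had a peak from 203689958 to 203690697 and Large White replicate 3 one from 203689988 to 203690727, each over 150 exonic bases.

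The other place in PLIN2 was in exon 8 of 8, where the Ningxiang replicate 2 peak covered 203694078 to 203694227 and the Large White replicate 1 peak 203694078 to 203694287. Both began on the same base. The shorter one was listed as exonic and the one that reached 60 bases further as 3′ untranslated region, so the annotated untranslated region begins within those 60 bases and the longer peak lay across the end of the coding sequence. No list of Large White held both places, whereas Ningxiang replicate 2 did.

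The exonic bases under PLIN2 peaks were 0, 419 and 0 in Ningxiang replicates 1 to 3, and 210, 150 and 150 in Large White replicates 1 to 3. Ningxiang replicate 2 was thus the highest of all 6 lists, while the other two Ningxiang lists had no peak. The means were 139.7 ± 242 bases in Ningxiang and 170 ± 34.6 in Large White (SD, n = 3 each; exact permutation test, two-sided p = 1, adjusted p = 1 over all genes). A peak was listed in 1 of 3 Ningxiang and in 3 of 3 Large White replicates (Fisher's exact test, two-sided p = 0.4, n = 3 per breed). Without Ningxiang replicate 2, PLIN2 had a peak in every Large White list and in no Ningxiang list. Fewer lists then have to meet the rule, and 54 of all genes met it, against 29 with all lists.

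PLIN3 is a coat protein that is dissolved in the cytosol and moves onto newly formed droplets. Its transcript NM_001031778 runs along the plus strand of chromosome 2 from 73970226 to 73994937. In Ningxiang replicate 1 the peak lay at 73994580 to 73994729 in exon 8 of 8, in Ningxiang replicate 2 at 73978240 to 73978389 in exon 3 of 8, and in Ningxiang replicate 3 it ran from 73970256 to 73978389. This last peak began 30 bases after the transcript start, in the 5′ untranslated region, and crossed into the third exon with 3 blocks of 8, 85 and 176 bases. It ended on the same base as the replicate 2 peak. Replicates 2 and 3 therefore shared a region, 73978214 to 73978389, and replicate 1 did not, so all 3 Ningxiang lists had the gene but no region of it in common.

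The exonic bases under PLIN3 peaks were 150, 150 and 269 in Ningxiang replicates 1 to 3, and 0 in each Large White replicate. Every Ningxiang list was above every Large White list, which held for 2.92% of all genes, while the opposite order held for 7.78%. For PLIN3 this order and its permutation p follow from the listing in 3 of 3 against 0 of 3 lists, and add nothing to it. The means were 189.7 ± 68.7 and 0 bases (SD, n = 3 each), with a two-sided exact permutation p of 0.1 and an adjusted p of 0.935 over the 2159 genes. Fisher's exact test on 3 of 3 against 0 of 3 lists also gave p = 0.1, the smallest that 3 against 3 allow, and an adjusted p of 1. These 3 peaks were weak within their lists: their authors' p-values were 0.00019, 4.6e-05 and 2.5e-07 in Ningxiang replicates 1 to 3, and 9.34%, 13.5% and 32.7% of the peaks of the same list were weaker. With only the strongest 50% of peaks per list, ranked by p, no PLIN3 peak was left in either breed.

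**Figure D2:**
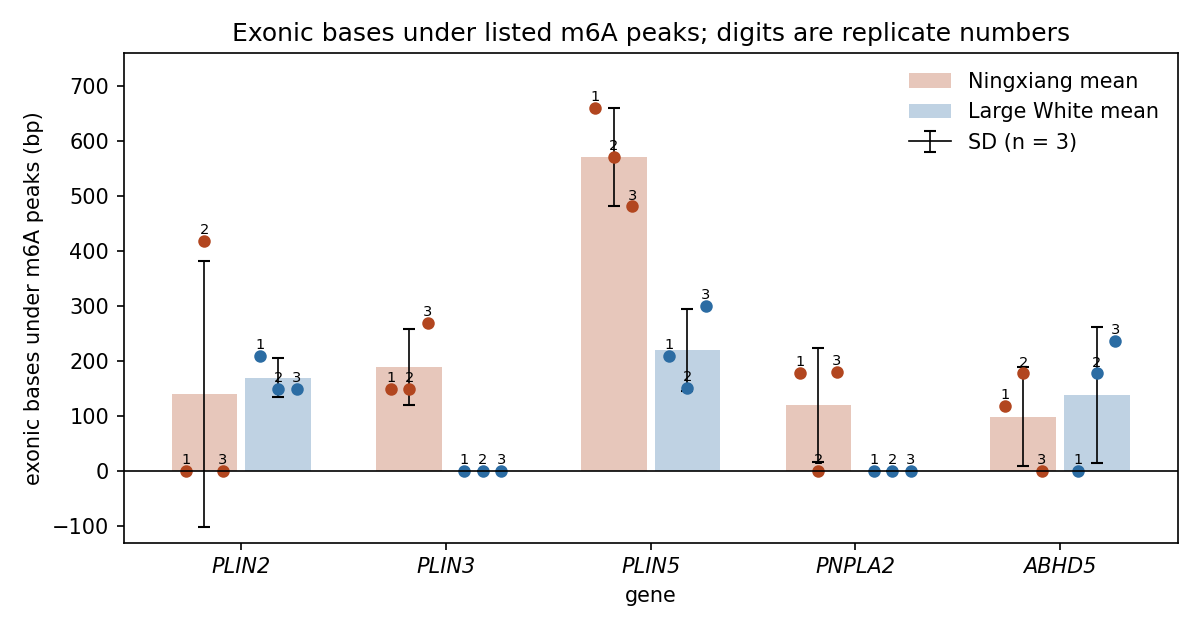
Exonic bases under listed m6A peaks (vertical axis, bp) for each gene (horizontal axis) in the Ningxiang and Large White lists. Points are lists with their replicate number, bars are means and whiskers are SD (n = 3); for PLIN5 the Ningxiang points, 481 to 660, lie above the Large White points, 151 to 300.

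PLIN5 links droplets to mitochondria in oxidative tissue and holds ABHD5 and PNPLA2 in check when lipolysis is not stimulated, as known from mouse and human cells. Its transcript NM_001123135 lies 310.8 kb beyond the end of the PLIN3 transcript, on the plus strand of chromosome 2 from 74305736 to 74313831. It carried 9 of the 23 peaks, at 2 places. The first was the last exon, exon 7 of 7, with a peak in each of the 6 lists. The second lay upstream around exons 4 and 5 and was listed in Ningxiang alone.

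At the last exon of PLIN5 the peaks together covered 74313472 to 74313831, of which the 91 bases from 74313681 to 74313771 were common to all 6 lists. The peak was 300, 330 and 360 bases long in Ningxiang replicates 1 to 3, and 210, 151 and 300 in Large White replicates 1 to 3. The breeds met at 300 bases, so they were not separated there, and the means of 330 ± 30 and 220.3 ± 75.0 bases (SD, n = 3 each) gave a two-sided exact permutation p of 0.2. The authors' fold for this peak was 2.85, 3.91 and 3.48 in Ningxiang replicates 1 to 3, and 2.04, 2.45 and 2.29 in Large White replicates 1 to 3. These folds are the authors' value for a single peak over different stretches in each list, and they are given as a description, with no comparison of methylation level. By p the last-exon peak was stronger than 30.2% of the list in Large White replicate 2 and than 66.4% to 75.5% in the other 5 lists.

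The upstream place of PLIN5 was listed from 74308689 to 74313010 in Ningxiang replicate 1, from 74308719 to 74311216 in replicate 2 and from 74311096 to 74311216 in replicate 3. The replicate 1 peak had 3 exonic blocks of 103, 200 and 57 bases, the replicate 2 peak had 2 of 73 and 168, and the replicate 3 peak was 1 block of 121 within exon 5 of 7. All 3 covered the 121 bases of the replicate 3 peak. The merged block of exon 5, 74311049 to 74311248, was the only one of the 18 merged exonic regions of the 5 genes with a peak in 3 of 3 Ningxiang and 0 of 3 Large White lists; none had the opposite pattern. Among the 9349 merged exonic regions of all genes 0.685% were listed in Ningxiang only in this sense and 1.78% in Large White only. The replicate 3 peak was the weakest of them, with a fold of 1.91 and 36.2% of its list weaker by p, against 63.7% and 66.2% in replicates 1 and 2. The region was lost as a Ningxiang only one when a fold of 2 or more was asked for, or when only the strongest 50% of peaks per list were kept.

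Over both places the exonic bases under PLIN5 peaks were 660, 571 and 481 in Ningxiang replicates 1 to 3, and 210, 151 and 300 in Large White replicates 1 to 3. No Ningxiang list overlapped the Large White range. This order held for 2.92% of all genes and the opposite order for 7.78%. The means were 571 ± 89.5 and 220.3 ± 75.0 bases (SD, n = 3 each), a difference of 350.3 bases (exact permutation test, two-sided p = 0.1, the smallest possible, adjusted p = 0.935). The order of the breeds held without each single list in turn, with differences of 305.7 to 395.2 bases.

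PNPLA2, the first lipase of triacylglycerol breakdown, has its transcript NM_001098605 on the plus strand of chromosome 2 from 513237 to 517510. Its peaks lay at 516489 to 516746 in Ningxiang replicate 1 and at 516350 to 516638 in Ningxiang replicate 3, the first beginning in exon 6 of 9 and the other in exon 5 of 9. Both crossed a splice junction and they overlapped in exon 6, in a merged block from 516471 to 516647. The exonic bases covered were 179, 0 and 180 in Ningxiang replicates 1 to 3, and 0 in each Large White replicate. Ningxiang replicate 2 was thus at the Large White value, and the means of 119.7 ± 104 and 0 bases (SD, n = 3 each) gave a two-sided exact permutation p of 0.4 (adjusted p = 1). Without Ningxiang replicate 2, PNPLA2 had a peak in every Ningxiang list and in no Large White list. Fewer lists then have to meet the rule, and 41 of all genes met it, against 16 with all lists.

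The PNPLA2 peaks combined a very low p with a low fold. Their p-values were 4e-36 in Ningxiang replicate 1 and 1e-31 in replicate 3, stronger than 86.6% and 81.4% of the peaks in the same lists. Their folds were 1.78 and 1.82, above only 9.24% and 9.0% of the same lists. At a fold of 2 or more no PNPLA2 peak was left. PLIN2 peaks beginning in exon 5 were low by fold too, and near the middle of their lists by p. In Ningxiang replicate 2 the fold was 2.05, above 23.4% of the list, with a p stronger than 54.4%. In Large White replicates 2 and 3 the folds were 1.70 and 1.69, above 3.03% and 3.12% of the list, with p-values stronger than 58.3% and 60.7%.

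ABHD5, which binds and stimulates PNPLA2, has its transcript NM_001012407 on the plus strand of chromosome 13 from 27006331 to 27053760. In 3 lists its peak was listed in the 3′ untranslated region: at 27053524 to 27053701 in Ningxiang replicate 2, at 27053406 to 27053583 in Large White replicate 2, and at 27052614 to 27053554 in Large White replicate 3. The Large White replicate 3 peak had an 80-base block before an intron and 157 bases after it. In Ningxiang replicate 1 the peak lay elsewhere, at 27039185 to 27039303 in exon 3 of 8. The exonic bases covered were 119, 178 and 0 in Ningxiang replicates 1 to 3, and 0, 178 and 237 in Large White replicates 1 to 3. The breeds overlapped, with means of 99.0 ± 90.7 and 138.3 ± 123 bases (SD, n = 3 each; exact permutation test, two-sided p = 0.8, adjusted p = 1).

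The ABHD5 peaks were weak by p in every list that held one, and the Ningxiang peaks ranked high by fold within their own lists. The Ningxiang replicate 1 peak lay in exon 3 of 8, and the others in the 3′ untranslated region. The folds are thus a description, with no comparison between the breeds. The Ningxiang peaks had folds of 7.07 in replicate 1 and 3.98 in replicate 2, above 96.5% and 84.8% of their lists, with p-values of 8.5e-06 and 2e-06 that were stronger than 22.2% and 26.6%. Its Large White peaks had folds of 2.71 and 2.40 in replicates 2 and 3, above 54.8% and 46.1% of their lists and so near the middle, and p-values stronger than 23.4% and 31.8%.

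**Figure D3:**
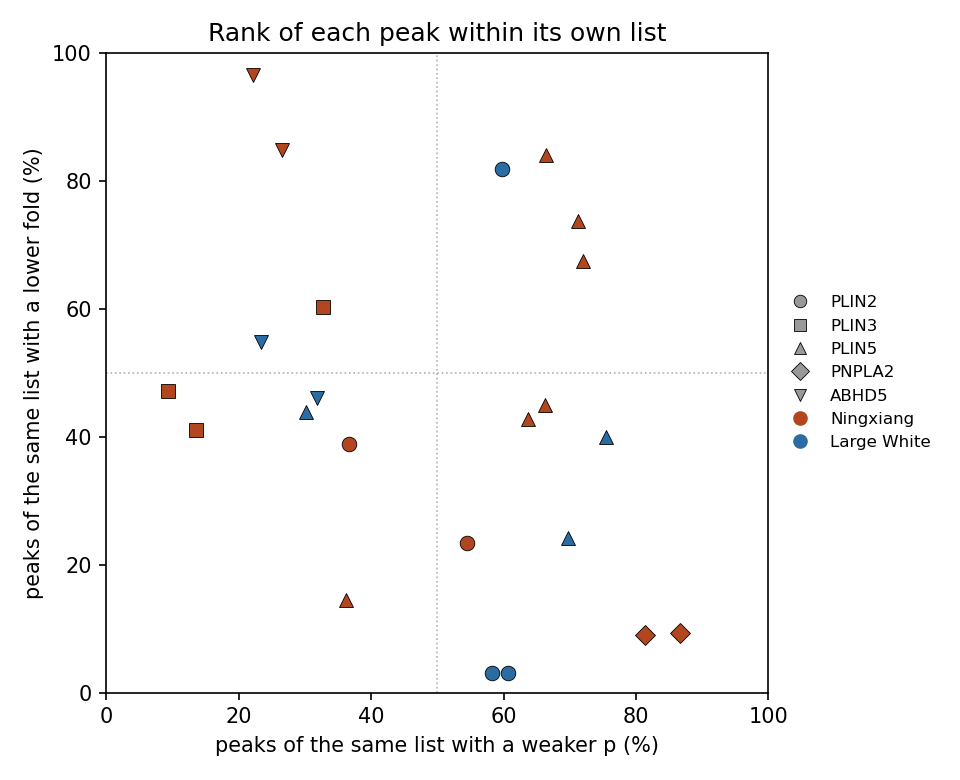
Rank of each of the 23 peaks within its own list. The horizontal axis gives the percentage of peaks in the same list with a weaker p and the vertical axis the percentage with a lower fold; marker shapes are genes, colours are breeds and dotted lines mark 50%. PNPLA2 lies at the lower right (81.4% and 86.6% by p, 9.0% and 9.24% by fold) and the Ningxiang ABHD5 peaks at the upper left.

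For each gene the 3 genes most like it were those with the smallest sum, over the 6 lists, of absolute differences in covered exonic bases. For PLIN5 the nearest was SNCAIP, at 154 bases in sum, followed by APOE at 521 and GALM at 542. SNCAIP had 659, 509 and 449 bases in Ningxiang replicates 1 to 3 and 180, 180 and 300 in Large White replicates 1 to 3, without overlap. In APOE and GALM the breeds overlapped. APOE had 294 bases in Ningxiang replicate 2 and 295 in Large White replicate 2. GALM had 327 in Ningxiang replicate 3 and 388 in Large White replicate 1. For PLIN3 they were NUBP2 at 62, CRYL1 at 87 and LIN7B at 118, all with 0 bases in Large White. For PNPLA2 they were RSRP1 at 2, ST6GALNAC4 at 28 and SLC25A1 at 31, each of which was also without a peak in Ningxiang replicate 2. PLIN2 was nearest to TRA2A, ACVR2B and MAP2K1, at 301, 302 and 328, and ABHD5 to CCDC28A, OXCT1 and ARMC1, at 155, 177 and 178. The likeness is over 6 lists and covered length alone.

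Other genes of lipid droplets and lipolysis were counted from a list of 66, of which 44 could carry a peak because they have a curated transcript. Of these 44, 30 or 68.2% had a peak in some list, where 53.5% of the 4037 genes with a curated transcript or a peak did. In all 6 lists 14 of the 30 had one, or 46.7%, beside 35.7% of the 2159 genes with a peak. MGLL, which splits the monoacylglycerol left at the end of lipolysis, was among these, as were BSCL2, or seipin, and FITM1, both of which act in droplet formation at the endoplasmic reticulum, and ACSL1, which activates fatty acids. HILPDA, an inhibitor of PNPLA2, had a peak in 2 of 3 Ningxiang and 2 of 3 Large White lists. G0S2, the other known inhibitor, and LIPE, the hormone-sensitive lipase of the second step, had none. DGAT2, an enzyme of triacylglycerol synthesis, had a peak in 1 of 3 lists of each breed. CIDEC, which lets droplets fuse, had one in 2 of 3 Ningxiang and 3 of 3 Large White lists.

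None of these 30 genes had a peak in every list of one breed and in none of the other. More Ningxiang than Large White lists had a peak for 3 of the 30, and more Large White than Ningxiang lists for 10; among all genes 21.1% and 31.2% did. The median difference was 0 lists in the set and over all genes. The number of these genes with a peak was 19, 23 and 22 in Ningxiang replicates 1 to 3, and 22, 26 and 25 in Large White replicates 1 to 3. All genes with a peak numbered 1310, 1349 and 1443 in the Ningxiang lists and 1480, 1376 and 1542 in the Large White lists. The list with the most genes of the set, Large White replicate 2, was not the longest. PLIN3, PNPLA2 and the upstream place of PLIN5 were listed in Ningxiang alone. The Ningxiang lists were shorter on average, but Large White replicate 2 held fewer genes than Ningxiang replicate 3. With every list limited to its 2034 strongest peaks, PLIN3 kept its difference of 3 lists and PNPLA2 its difference of 2. At that limit 1 Ningxiang only region of the 5 genes remained, as in the main setting. Such a limit only removes peaks, so it could not add a Large White listing. Whether list length had a part in these listings was not tested further. PLIN4, which lies beyond PLIN5 on chromosome 2, has no curated transcript and could not carry a peak.

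**Figure D4:**
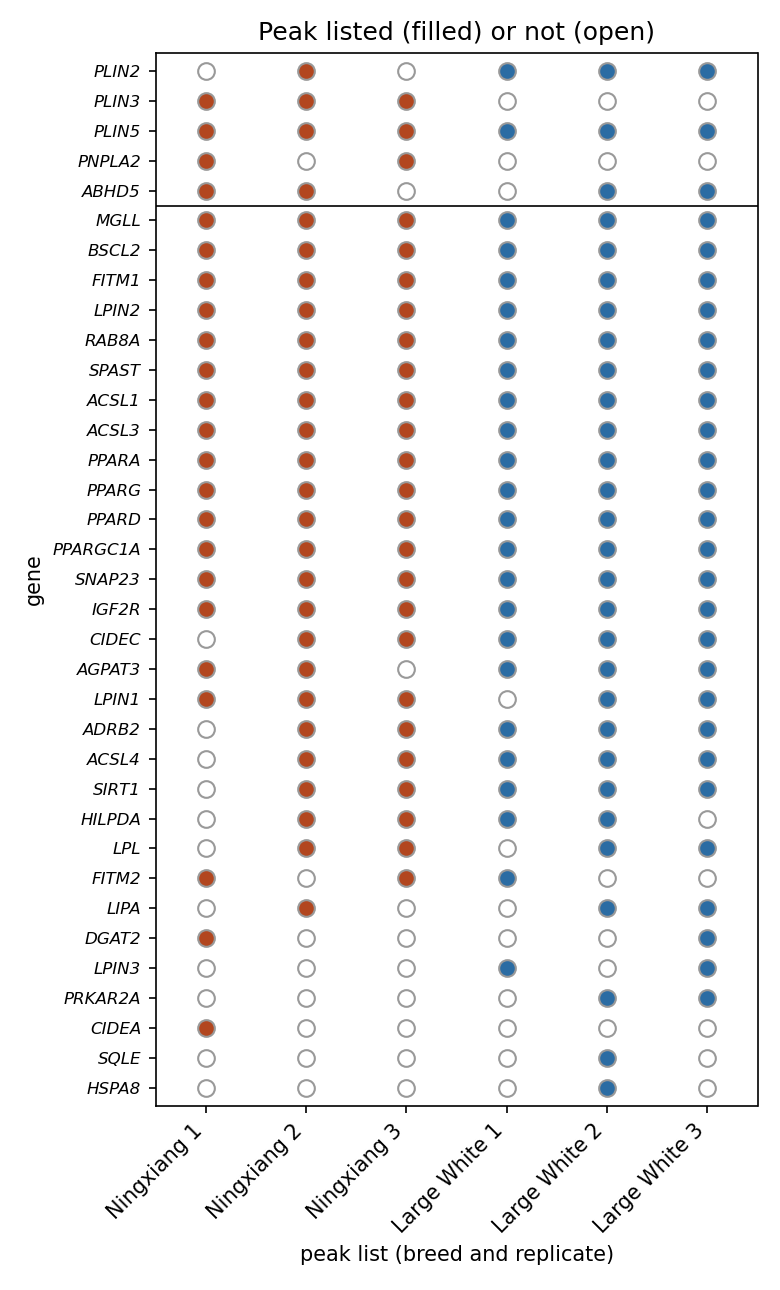
Listing of the 5 genes (above the line) and of the 30 other lipid droplet and lipolysis genes with a peak (below it). Rows are genes, columns are the 3 Ningxiang lists and then the 3 Large White lists, and a filled circle marks a listed peak. PLIN3 is filled in the Ningxiang columns only, and 14 of the 30 other genes are filled throughout.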

How the data were processed

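Peaks were listed for 1 immunoprecipitated sample and its input per replicate, 12 samples in all, and each list was assigned through the sample description that names it. Per the submitters' processing notes, the build was susScr11 and the tools included HOMER, ChIPseeker 1.30.2 and FastQC 0.11.9; the aligner is not given in the sources used here, nor is the peak caller. Per the file headers, the authors deposited for each peak a p-value, its log10 and the log10 of its adjusted form (both kept here as a score), a fold (linear ratio) whose denominator the headers do not name, and its position and exon blocks. The genomic start, counted from 0, was raised by 1.

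Exonic bases were the union of a gene's blocks per list. Merged regions were exonic blocks of a gene overlapping by at least 1 bp in any lists. Presence was tested with Fisher's exact test and bases with exact permutation tests, two-sided, for every one of the 2159 genes, with Benjamini-Hochberg adjustment over all of them; no gene reached an unadjusted p under 0.05, since 3 against 3 cannot go below 0.1. Ranks by p or fold were taken within a list. Every one of the 23 peaks lay on the plus strand, so exon numbers count from the 5′ end. Wherever a plus-strand peak of 1 block enclosed another one listed in a 3′ untranslated region it was listed there too (965 of 965), so that class takes precedence over exons. Gene names and curated transcripts came from RefSeq on Sscrofa11.1. No sequence was analysed here. The members, gene lists and the rule for nearest genes were chosen with earlier results of these data known. Python 3.11.15, pandas 2.3.3, NumPy 2.4.6, SciPy 1.17.1 and matplotlib 3.10.9 were used, and the counting was tested on simulated lists.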

Additional observations from a re-analysis of the deposited data

How the results depend on the processing

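Presence of a peak, exonic bases, members per list, breed-only genes and member regions gave 15 results and 170 alternative values. Of these, 140 were rated the same, some of them falling to 0. For presence and bases this meant no call gained or lost and no change of sign. For counts of genes and regions it meant an equal count or a ratio of at most 1.5. For members per list it meant a shift below 1 SD. Such counts can hold other genes: with only the strongest 50% of peaks per list, 24 genes were Large White only, of which 4 were among the main 29. Values with replicates of the same number as a block were the same by construction. With only the strongest 50% of peaks per list, PLIN3 had a difference of 0 lists and 0 bases, the number of the 5 genes per list differed by 0.333, Ningxiang only genes numbered 9 and Ningxiang only regions of the 5 genes 0. With every list limited to 2034 peaks, the length of the shortest, 27 genes were Ningxiang only and 23 Large White only, which turns the order of the breeds. At a fold of 2 or more the PLIN2 difference in bases turned to 69.7, no Ningxiang only region was left, PNPLA2 had no peak and PLIN2 had one in 1 list of each breed; over genomic span the PLIN2 difference turned to 325.7. An adjusted p of 0.01 and an overlap of at least 50% changed no call on the 5 genes. At that adjusted p 20 genes were Ningxiang only and 30 Large White only, against 16 and 29 in the main setting. Leaving out 1 list in turn gave 22 to 41 Ningxiang only and 44 to 69 Large White only genes, where fewer lists have to meet the rule, and 1 to 2 Ningxiang only regions of the 5 genes. It gave PLIN2 a difference of -3 to -1.5 and PNPLA2 of 1.5 to 3 lists, counted per 3 lists of a breed. In bases it gave -170 to 39.5 for PLIN2, 89.5 to 179.5 for PNPLA2 and -108.5 to 10.2 for ABHD5. Except where a list or peak was left out by construction, the cause was not tested. Assigning peaks to genes by overlap with annotated exons was not run.

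Lists with the same replicate number shared little: over 771 genes their deviations in log2 best fold correlated at 0.0576, 0.0114 and 0.0565, so the numbers were not taken as pairs, although every list correlated best with its own number. With the replicate block the differences of 350.3 bases for PLIN5 and 189.7 for PLIN3 had an exact permutation p of 0.25, the smallest that 3 pairs allow.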

Other observations

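The curated transcripts used for annotation end short of the RefSeq gene record for 4 of the 5 genes: by 483 bases for PLIN5, 377 for PLIN3, 452 for PNPLA2 and 14603 for PLIN2, with introns included, and by 0 for ABHD5. Among plus-strand genes with a peak, 541 of 1074 matched by name, or 50.4%, had a record that ends beyond the transcript. The median distance over these 1074 genes was only 1 base. In 4 of the 6 lists, Ningxiang replicates 2 and 3 and Large White replicates 2 and 3, the last-exon peak of PLIN5 stopped exactly on the transcript end, as 6.91% of all plus-strand peaks did. The Large White replicate 1 peak, which stopped 30 bases before that end, was listed as exonic, and those that reached the end were listed in the 3′ untranslated region. The annotated untranslated region of PLIN5 is therefore at most 30 bases long, and nearly all of the shared last-exon peak lies in annotated coding sequence. Whether signal went on beyond the transcript end was not analysed here.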
